A study of Mus musculus with 8 samples.

Results

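Ribosomal protein genes were followed through the mammary gland cycle in single epithelial cells of the mouse. A gene was included if its symbol starts with Rpl or Rps and a digit, or is Rplp0, Rplp1, Rplp2 or Rpsa, and if it is neither a pseudogene with a -ps symbol nor an Rps6k kinase. This gave 87 of 27998 genes and left out 16 -ps symbols and 10 kinases. Of the 87, 77 encode the proteins of the cytoplasmic ribosome, 31 in the small and 46 in the large subunit. Another 9 are paralogs or retrogenes (Rpl22l1, Rps27l, Rpl39l, Rpl3l, Rpl10l, Rpl36al, Rpl7l1, Rps27rt and Rpl6l), and 1, Rps19bp1, encodes a protein that binds Rps19 and is not part of the ribosome. Fau and Gnb2l1, which encode further ribosomal proteins under other names, fall outside the symbol rule and were kept as a comparison.

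The 8 libraries were 1 C57BL/6N mouse each, with 2 mice at each of 4 stages. NP mice were nulliparous and 8 weeks old, G mice were at gestation day 14.5, L mice at lactation day 6, and PI mice had weaned naturally 11 days before. EpCAM+ cells were sorted after cells with CD31, CD45 or Ter119 had been excluded, and transcripts were counted at their 3′ ends on the 10x Chromium platform, where a random tag (unique molecular identifier, UMI) lets each captured molecule be counted once. Both NP mice and PI mouse 2 were recorded in oestrus and PI mouse 1 in dioestrus. Cells carry the authors' clusters, which were made from the same counts, so that differences between clusters are descriptions and not independent tests. The clusters used are hormone-sensing progenitors (Hsp: C2 of NP, C1 of PI), differentiated hormone-sensing cells (Hsd: C4 of NP, C3 of PI, C5 of G), luminal progenitors (Lp: C6 of NP, C7 of PI), alveolar progenitors (Avp: C10 of G, C11 of L), differentiated alveolar cells (Avd: C8 of G, C9 of L), basal cells (C12 of NP and PI, C13 of G, C14, the myoepithelial cells of L) and Procr+ cells (C15 of L). C16 and C17 (immune), C18 (fibroblast) and C19 (endothelial) are cells of other types that passed the sort.

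Every ribosome holds 1 copy of nearly all of these proteins beside the ribosomal RNAs. The small subunit reads the messenger RNA and the large subunit joins the amino acids, and the acidic stalk proteins Rplp0, Rplp1 and Rplp2 recruit the elongation factors to the large subunit. Most ribosomal protein messenger RNAs start with a C followed by a run of pyrimidines, the 5′ terminal oligopyrimidine (TOP) motif, through which mTOR signalling controls their translation as a group. In the mammary gland, demand for protein synthesis changes with the cycle, since alveolar cells proliferate in gestation and secrete large amounts of milk protein in lactation.

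The start of these transcripts is shown for members with a long or a short tract and for 3 members of paralog pairs in the results. Each window runs from 15 bases before to 15 bases from the annotated RefSeq start (GRCm38.p6), and capitals mark a pyrimidine tract that begins with C exactly at that start. The large subunit genes Rpl35 (chr2:39005117-39005146, minus strand), Rpl28 (chr7:4792950-4792979, plus strand) and Rpl15 (chr14:18270972-18271001, minus strand), the stalk gene Rplp2 (chr7:141447636-141447665, plus strand) and the small subunit gene Rps6 (chr4:86857353-86857382, minus strand) have such a tract. The parent and retrogene pair Rps27 (chr3:90213634-90213663, minus strand) and Rps27rt (chr9:114982725-114982754, minus strand) share the bases that follow their annotated starts, and the paralog Rpl22l1 (chr3:28805493-28805522, plus strand) has no tract at its annotated start.
Rpl35: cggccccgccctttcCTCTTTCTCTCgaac
Rpl28: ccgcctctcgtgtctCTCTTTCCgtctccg
Rpl15: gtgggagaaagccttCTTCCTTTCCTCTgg
Rplp2: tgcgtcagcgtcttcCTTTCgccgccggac
Rps6: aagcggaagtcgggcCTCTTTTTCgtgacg
Rps27: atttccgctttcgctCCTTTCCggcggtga
Rps27rt: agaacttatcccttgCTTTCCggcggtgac
Rpl22l1: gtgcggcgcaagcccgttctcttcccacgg

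A promoter window was found for 66 of the 87 genes (75.9%). A C with at least 4 pyrimidines after it stood exactly at the annotated start of 14 of these 66 genes (21.2%), against 813 of 27025 genes in the promoter table (3.01%). The motif CCGGAAG, searched on either strand of the full promoter window in the RefSeq table, which reaches further to both sides than the stretch printed above, was in 26 of the 66 (39.4%) and in 2683 of 27025 (9.93%). With under 80% of the members matched, these shares describe the genes in the table and not the whole set. A start annotated a few bases off moves the first measure, so that a member without a tract here may still carry one.

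Of 25806 annotated barcodes 25010 passed the authors' quality flags, and 1 of these, in PI mouse 2, could not be matched to the matrix. C1 to C19 held 24699 of the matched cells, and the 310 cells of the doublet cluster C20 were left out. Barcode sequences found in more than 1 library numbered 392, and cells were matched by library and barcode. UMIs were summed per mouse and cluster for the 51 sums of at least 20 cells, 35 of them in C1 to C15, with 111570 to 26454500 UMIs each. Library totals were 13785920 to 35711533 UMIs. At this depth the 95% Wilson interval of a share, which covers counting error only, was at most 0.261 points to either side. The clusters held the markers of their names: the summed level of the 4 luminal markers in C6 was 23752 and 19758 CPM (UMIs scaled to a common total for each sum), that of the 5 basal markers in C14 was 33343 and 29968 CPM, and C18, C17 and C19 led in the fibroblast, immune and endothelial lists. C15 carried the pericyte list at 5441 and 4819 CPM beside 7766 and 8930 CPM of the basal list, of which Acta2, an actin gene that pericytes also express, made up 7376 and 8512 CPM. Krt14, a keratin of basal cells, stood at 297 and 276 CPM there, against 4878 and 5442 CPM in myoepithelial cells and 268 and 251 CPM in fibroblasts of the same mice, so the basal list did not mark C15 as epithelial.

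The 87 genes took from 10.0% to 35.2% of all UMIs in a sum. Their share was highest in the alveolar progenitors of G, with 34.6% in mouse 1 and 35.2% in mouse 2, and lowest in the differentiated alveolar cells of L, with 10.0% and 11.0%. Differentiated alveolar cells of G had 27.2% and 29.6%, and alveolar progenitors of L had 18.9% and 16.9%. The ranges of G and L did not overlap in either alveolar state.

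Milk protein transcripts took up part of the total in alveolar cells. The 8 milk protein genes made up 44.8% and 41.7% of the UMIs of C9, and with these UMIs left out the ribosomal share of C9 was 18.2% and 18.8%. In C8 the milk protein share was 9.67% and 5.74%, and the ribosomal share without it was 30.1% and 31.4%. In C11 the ribosomal share without milk protein UMIs was 20.3% and 18.01%. The shares of L thus lay below those of G also without the milk protein genes. A lower share cannot be told apart from more of other RNA in the cell. Shares of single cells were taken over all UMIs, milk protein genes included, and were not computed without them. On that scale the difference ran through the cells. In the G mice 90% of the cells of C8 had shares above 20.7% and 23.1%. In the L mice 90% of the cells of C9 lay below 17.9% and 17.7%. In C13 90% of the cells lay above 21.3% and 21.4%, and in C14 90% lay below 17.1% and 16.95%. In C10 and C11 the cells overlapped, with 90% above 27.8% and 28.2% in G and 90% below 30.5% and 24.7% in L.

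Basal cells spanned 13.3% to 26.0%. C12 held 23.6% and 26.0% in the NP mice and 19.5% and 18.5% in the PI mice. The gestation cluster C13 held 25.6% and 25.7%, and the lactation cluster C14 held 13.3% in both mice. The L mice were thus well below the others, and the PI mice lay between L and the remaining mice. The Procr+ cells of L, at 12.5% and 11.3%, were below the myoepithelial cells of the same mice.

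In luminal cells outside the alveolar lineage the NP mice had the higher shares. Hormone-sensing progenitors had 28.3% and 31.6% in NP against 22.6% and 25.1% in PI. Differentiated hormone-sensing cells had 27.1% and 30.9% in NP (C4), 19.5% and 21.5% in PI (C3) and 23.0% and 22.6% in G (C5). Cells of PI mice that the authors placed in C4 had 23.6% and 25.6%, below both NP mice in the same cluster. Luminal progenitors had 26.4% and 28.6% in C6 of NP, 23.1% and 25.4% in C7 of PI, and 21.6% in C6 of PI mouse 1, the only PI mouse with 20 cells there.

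NP mouse 2 stood above NP mouse 1 in all 5 clusters that both filled, by 2.18 to 3.84 points, fibroblasts included. PI mouse 2 stood above PI mouse 1 in 4 of 5 clusters, L mouse 1 above L mouse 2 in 6 of 7, and the G mice split 4 to 3. A difference of this kind moves a whole library, and the comparisons of PI with NP below are given with and without NP mouse 2.

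The cells of other types did not follow one course. Fibroblasts (C18) had 22.0% and 24.6% in the NP mice, 21.6% in PI mouse 2, and less in gestation (16.1% and 16.7%) and lactation (18.5% and 17.1%). Immune cells (C17) had 18.3% and 17.6% in G and 17.5% and 17.2% in L, and the immune cluster C16 had 31.4% in G mouse 1. Endothelial cells (C19) had 24.1% and 22.4% in G and 16.6% and 15.1% in L. From G to L the endothelial share was thus lower by more than the distance between mice, the immune share of C17 lower by under 2 points, and the fibroblast share higher in both mice.

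**Figure D1:**
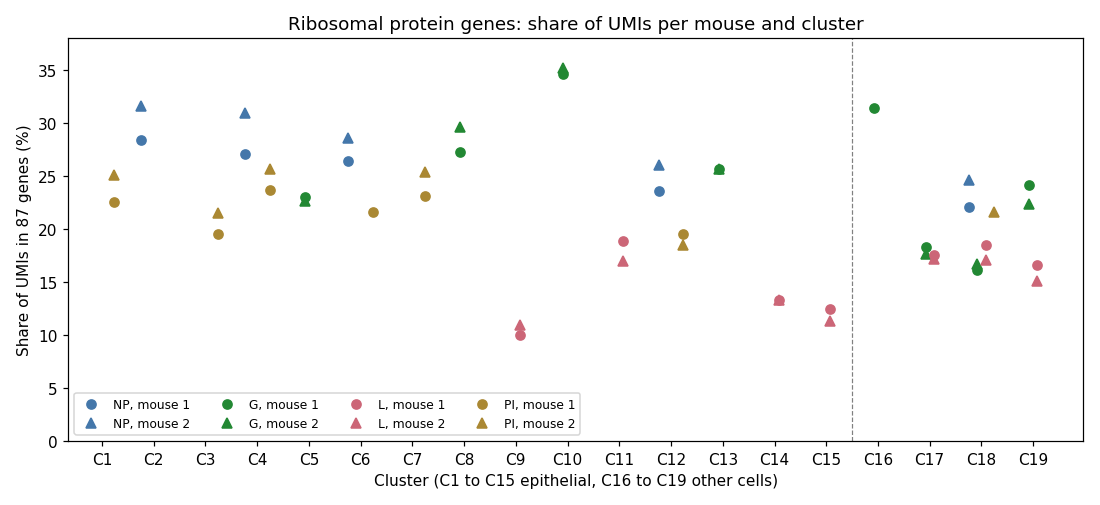
Share of UMIs in the 87 ribosomal protein genes (y axis, percent) for each cluster (x axis), with 1 point per mouse: circles for mouse 1 and triangles for mouse 2, coloured by stage. Alveolar progenitors of G (C10) lie at 34.6% and 35.2%, the sums of L in C9, C11, C14 and C15 lie between 10.0% and 18.9%, and the dashed line separates C1 to C15 from C16 to C19.

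Within the same mouse, cells share the handling of 1 library, though their UMIs per cell differ between clusters, so shares were also compared as differences between cell states. The progenitor of each stage was the Lp or Avp cluster (C6 in NP, C10 in G, C11 in L, C7 in PI). It was set against the differentiated luminal cells (C4, C8, C9 and C3) and the basal cells (C12, C13, C14 and C12). Hormone-sensing progenitors were not part of these contrasts. Progenitors exceeded basal cells in 8 of 8 mice. They did so by 2.85 and 2.59 points in the NP mice, by 8.97 and 9.54 points in gestation, by 5.57 and 3.68 points in lactation and by 3.65 and 6.88 points after involution. Its mean was 5.47 points (SD 2.74, n = 8 mice), with a two-sided exact sign-flip permutation p of 0.00781, the smallest that 8 mice can give, and 0.0234 after Benjamini-Hochberg adjustment over the 3 contrasts.

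Progenitors against differentiated luminal cells gave a mixed picture. Progenitors were lower in both NP mice, by -0.63 and -2.29 points, and higher in the other 6 mice, by 7.38 and 5.61 points for the G mice, 8.84 and 5.98 for the L mice, and 3.59 and 3.89 for the PI mice. The mean was 4.05 points (SD 3.83, n = 8 mice, exact permutation p = 0.0313, adjusted 0.0469). Leaving out any 1 mouse of G, L or PI took the adjusted p to between 0.0781 and 0.0938, with means of 3.36 to 4.11 points. Without the milk protein UMIs the mean was 1.898 points (exact permutation, adjusted p = 0.0938), and L mouse 2 turned to -0.80 points. In cells of 3000 to 10000 UMIs it was 3.72 points (exact permutation, adjusted p = 0.0820), so that the call was lost there too. Hormone-sensing progenitors, which were not in this contrast, had higher shares over all cells than differentiated hormone-sensing cells in both NP and both PI mice. They held 28.3% and 31.6% against 27.1% and 30.9% in NP, and 22.6% and 25.1% against 19.5% and 21.5% in PI. In cells of 3000 to 10000 UMIs the order turned in NP, with 27.5% and 26.4% against 27.7% and 31.0%. Only 20 and 7 hormone-sensing progenitors of the NP mice were in that range. In PI the order held there, with 23.3% and 23.5% against 19.7% and 21.6%.

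Differentiated luminal cells exceeded basal cells in 6 of 8 mice, by a mean of 1.42 points (SD 2.99, exact permutation p = 0.227, adjusted 0.227). The exceptions were both L mice, at -3.26 and -2.31 points. Without the milk protein UMIs all 8 mice were positive, with a mean of 3.99 points (exact permutation, adjusted p = 0.0117). This contrast therefore depended on whether the milk protein transcripts were part of the total.

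**Figure D2:**
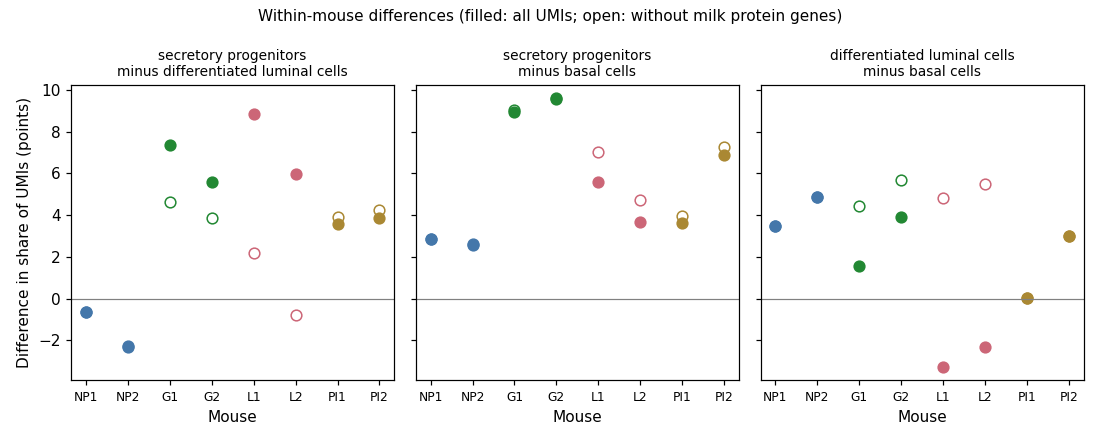
Differences in the share of UMIs in the 87 genes between cell states of the same mouse (y axis, percentage points; x axis, mouse), as filled points for all UMIs and open points without the milk protein genes. Progenitors are the Lp or Avp cells of each stage, titled secretory progenitors in the panels. Progenitors exceed basal cells in all 8 mice, and the NP mice are the only ones in which progenitors lie below differentiated luminal cells when all UMIs are counted.

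Single genes were tested between stages with edgeR's quasi-likelihood test on the sums of 2 mice against 2, scaled by TMM (trimmed mean of M values). Genes with too few counts were dropped, and a gene is called where its Benjamini-Hochberg adjusted p, taken over the whole table of genes, is below 0.05. With 2 mice against 2 a permutation test of 1 share cannot go below p = 0.333, so shares were not tested between stages. Of the 87 genes 84 passed the filter in each of the 8 comparisons. Rpl39l, Rpl3l and Rpl10l did not. Reads of ribosomal protein genes can also match the many near-identical pseudogene copies in the genome, so the level of a single member is uncertain where the copies differ little, as for Rps27 and Rps27rt.

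The most calls after TMM were made in basal cells from G to L. Of 84 members 69 were lower in L and 1 was higher, where 24.5% of all 12707 genes tested were called higher and 24.5% lower. The median of the members was -0.79 on the log2 scale and that of all genes was 0.04. By subunit, 28 of 31 small subunit and 38 of 46 large subunit genes were called lower. Leaving out each of the 4 mice in turn gave 65 to 70 calls.

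Rpl12, a large subunit protein at the base of the stalk, had 2897 and 2994 CPM in basal cells of G and 853 and 853 CPM in L. The L mice were thus under a common level well below both G mice, and the log2 fold change was -1.68 (SE 0.10, edgeR adjusted p = 3.16e-06). Rpl32, a large subunit protein, fell from 6668 and 6702 CPM to 2179 and 2150 CPM, a log2 fold change of -1.52. Rpsa, the small subunit protein also known as the laminin receptor, fell from 2276 and 2337 CPM to 796 and 732 CPM, a log2 fold change of -1.48. The stalk gene Rplp0 fell from 5350 and 5665 CPM to 1854 and 1836 CPM (log2 fold change -1.47), and its partners Rplp1 and Rplp2 fell by 1.01 and 0.78 on the log2 scale.

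The only member called higher was Rps29, a small subunit protein that binds zinc. It had 686 and 583 CPM in G and 832 and 983 CPM in L, a log2 fold change of 0.63 (SE 0.13, edgeR adjusted p = 0.00335). Both L mice exceeded both G mice also in CPM, without TMM. Rpl36al and Rps27l, paralogs of Rpl36a and Rps27, had log2 fold changes of -0.26 and 0.03 and were not called, whereas Rpl36a and Rps27 fell by 0.69 and 0.34.

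Other values moved with this change. The 16 genes of the dissociation stress and immediate early list had 15 called higher in basal cells of L, and their summed level was 10251 and 6869 CPM in C13 and 37046 and 30743 CPM in C14. In C17, C18 and C19 this list stood at 7567 to 16341 CPM in G and at 22994 to 35378 CPM in L. Cells of C14 also held fewer UMIs, with a median of 3701 and 4148 per cell against 6201 and 6060 in C13. Of the 20 cell division genes 19 were lower in basal cells of L. The part of these lists and of depth in the fall of the ribosomal protein genes was not tested.

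The fall of basal cells was also set against the change in the other cells of the same 4 mice. This comparison was added after the data had been seen, and it did not hold the stress list equal. Against C18, 9 of the 16 stress genes were called higher in basal cells and 0 lower, where 2.65% of all genes were called higher. Against C19 it was 12 and 0, where 5.40% of all genes were called higher, and against C17 0 were called. The part of this in the members' values was not tested. Basal cells exceeded fibroblasts in the G mice by 9.52 and 8.96 points of share and lay below them in the L mice by -5.19 and -3.79 points. In the fit of both cell types, the change from G to L was lower in basal cells for 75 of 85 members tested and higher for 0, against 4.49% of all genes called lower and 2.65% called higher. Of these 85 members 80 had an unadjusted p under 0.05, and DESeq2 called 38, all lower. The median difference was -1.13 (all genes -0.15). It was -1.66 for Rpsa (SE 0.21, edgeR adjusted p = 8.57e-13), -1.54 for Rpl32 and -1.46 for Rplp0. The fit had 8 sums and 2 residual degrees of freedom, the free values left to estimate the spread of a gene. For the typical gene edgeR took the spread wholly from a trend over all genes, with infinite prior degrees of freedom. The fit against C17 below had 8.86 and that against C19 was again infinite. The part of this in the number of calls was not tested.

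Against immune cells (C17) the call was less stable. Basal cells exceeded C17 by 7.36 and 8.07 points in G and lay below it by -4.21 and -3.88 points in L. The members' median difference was -0.88 (all genes -0.09), yet 6 of 85 members were called lower and 0 higher, against 0.616% and 0.538% of all genes. Among them were Rpl32, Rplp0, Rpl12, Rps26 and Rpsa, with edgeR adjusted p from 0.0270 to 0.0469. An unadjusted p under 0.05 was found for 73 members. Without G mouse 1 or G mouse 2 the count was 0, and without L mouse 1 or L mouse 2 it was 75 and 77. The immune cells had 2746 and 1225 CPM of the basal list in G and 9471 and 2575 CPM in L, and the part of this in the comparison was not tested.

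Against endothelial cells (C19) the basal share changed from a surplus of 1.47 and 3.30 points in G to a deficit of -3.28 and -1.83 points in L. The members' median difference was -0.12 (all genes 0.05). Only Rps27 was called lower and 0 members were called higher, against 4.12% and 5.40% of all genes, and 5 members had an unadjusted p under 0.05. DESeq2 called 0, with 1 at an unadjusted p under 0.05. Leaving out G mouse 1, G mouse 2 or L mouse 1 gave 0 calls and leaving out L mouse 2 gave 4. With total UMIs in place of TMM, 30 members were called lower.

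Alveolar progenitors also had lower ribosomal protein levels in L than in G. Of 84 members 51 were lower and 2 higher, against 13.5% and 16.6% of the 8398 genes tested. The median was -0.61 (all genes -0.03). Small subunit genes were called lower in 23 of 31 cases and large subunit genes in 27 of 46. Without G mouse 1 or G mouse 2 the calls numbered 31 and 32.

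Rpl12 had 3504 and 3595 CPM in Avp cells of G and 1263 and 1129 CPM in L. Its log2 fold change was -1.27 (SE 0.15, edgeR adjusted p = 5.16e-05). Rps3, a small subunit protein that also takes part in DNA repair, fell from 6822 and 7169 CPM to 2574 and 2377 CPM (-1.19), and Rpsa fell from 3510 and 3620 CPM to 1330 and 1211 CPM (-1.18). Both L mice lay far below both G mice for each of these genes.

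Both called rises were in short or duplicated members. Rpl36al had 558 and 597 CPM in G and 819 and 746 CPM in L, a log2 fold change of 0.74 (SE 0.15, edgeR adjusted p = 0.00232). Rps29 had 928 and 797 CPM in G and 998 and 1100 CPM in L, a log2 fold change of 0.59. For both genes the L mice exceeded the G mice in CPM as well. In the same cells 14 of 16 stress genes were higher, and the 5 basal markers were all higher, with a summed level of 164 and 222 CPM in G and 4804 and 3443 CPM in L, where the part of either in these results was not tested.

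In differentiated alveolar cells the calls from G to L depended on the scaling. After TMM, 41 of 84 members were lower and 3 higher, against 10.5% and 9.55% of the 11858 genes tested, with a median of -0.51 (all genes -0.16). With total UMIs as the scale the all-gene median moved to -1.06, and 80 members were lower and 0 higher with a median of -1.40. The members lay below the all-gene median by a like amount on both scales. Without G mouse 1 or G mouse 2, 14 and 7 members were called. After TMM the stress list had 11 of 16 genes higher and 1 lower in these L cells. Its summed level overlapped between the stages, at 11911 and 9865 CPM in C8 and 11089 and 12646 CPM in C9. The 5 basal markers were all higher, from 133 and 124 CPM to 2075 and 908 CPM in sum. The part of either list in these results was not tested.

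Rps3 had 5371 and 6088 CPM in C8 and 1277 and 1291 CPM in C9, with a log2 fold change of -1.26 (SE 0.18, edgeR adjusted p = 7.30e-05). Rps4x, the X-linked small subunit protein, went from 6223 and 7212 CPM to 1567 and 1473 CPM (-1.25). These falls were as clear in CPM as after TMM. The 3 called rises were not: Rpl41, the shortest ribosomal protein, had 4879 and 4394 CPM in G and 4060 and 4609 CPM in L, a log2 fold change of 0.80 after TMM and -0.10 in mean CPM. Rps29 and Rpl36al likewise had 0.74 and 0.72 after TMM, and -0.16 and -0.17 in mean CPM.

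From luminal progenitors of NP to alveolar progenitors of G the members moved upward. Of 84 members 41 were higher and 8 lower, against 24.7% and 23.6% of the 9564 genes tested, and the median was 0.26 (all genes -0.01). The small subunit had 18 of 31 genes higher and the large subunit 22 of 46, while 4 of 6 paralogs tested were lower. Without G mouse 2 the count was 28.

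Rpl7a, a large subunit protein, had 1345 and 1351 CPM in Lp cells of NP and 2397 and 2497 CPM in Avp cells of G, a log2 fold change of 0.85 (SE 0.11, edgeR adjusted p = 1.01e-05). Rps3 went from 4030 and 3932 CPM to 6822 and 7169 CPM (0.80). For both genes the G mice were well above the NP mice. Rpsa rose by 0.73 and Rplp0 by 0.34, whereas Rplp1 and Rplp2, at -0.06 and 0.15, were not called. The difference between the 3 stalk genes was not tested.

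The largest falls in the same comparison were outside the ribosome proper. Rps27rt had 19.01 and 41.5 CPM in NP and 9.18 and 11.9 CPM in G (-1.48). Rps19bp1 fell from 110 and 114 CPM to 69.6 and 68.6 CPM (-0.71). Rpl7l1, a paralog of Rpl7, fell from 76.96 and 79.2 CPM to 53.6 and 46.8 CPM (-0.65). All 20 cell division genes were higher in these G cells, and the part of proliferation in the rise of the members was not tested.

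Basal cells from NP to G had called members in both directions. Of 84 members 23 were higher and 18 lower, against 24.8% and 22.8% of the 11074 genes tested, so neither share stood far from the background, and the median was 0.02 (all genes 0.01). With total UMIs 16 were higher and 27 lower and the median was -0.06. Without NP mouse 1 the split was 13 higher and 26 lower, without G mouse 1 it was 13 and 18, and without G mouse 2 it was 11 and 12. With the replicate number as a block it was 16 and 20.

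Members with long coding sequences led the rises of basal cells in G. Rps4x went from 4206 and 4367 CPM to 6530 and 6715 CPM (log2 fold change 0.71, SE 0.12, edgeR adjusted p = 1.05e-05), Rpl3, at the peptidyl transferase centre, from 2790 and 3078 CPM to 4239 and 4366 CPM (0.64), and Rps3 from 3980 and 4068 CPM to 5607 and 5936 CPM (0.61). The largest falls were those of Rps19bp1, from 141 and 131 CPM to 58.1 and 65.2 CPM (-1.06), Rpl36al, from 729 and 784 CPM to 346 and 348 CPM (-1.04), and Rpl7l1, from 150 and 114 CPM to 64.7 and 66.6 CPM (-0.93). These 6 genes kept their direction in mean CPM. In the same G cells all 5 hormone-sensing and all 4 luminal markers were lower and 6 of 16 stress genes higher, and the part of this in the members' values was not tested.

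**Figure D3:**
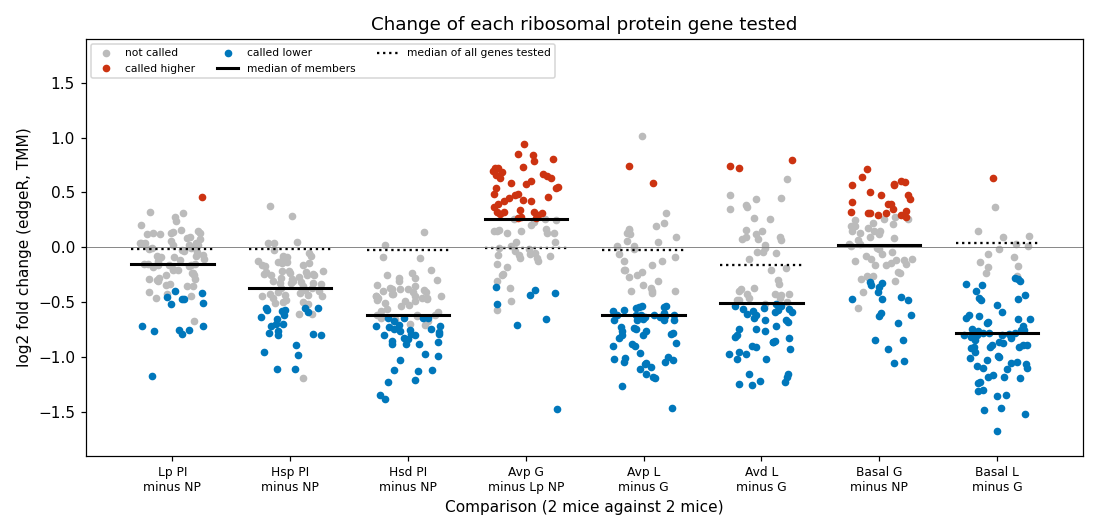
Log2 fold change of each ribosomal protein gene tested (y axis) in the 8 stage comparisons (x axis), coloured by call, with the median of the members (solid line) and of all genes tested (dotted line). Basal cells of L against G have 69 of 84 members called lower, and alveolar progenitors of G against luminal progenitors of NP have 41 called higher.

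After involution the hormone-sensing cells had lower levels than in nulliparous mice. In Hsd cells 35 of 84 members were lower and 0 higher, against 7.79% and 8.83% of the 11956 genes tested, and 55 members had an unadjusted p under 0.05. The median was -0.62 (all genes -0.02), and all 31 small subunit and all 46 large subunit genes had a log2 fold change below 0. DESeq2 called 51, all lower. Without NP mouse 2 the count was 5, and without PI mouse 1 it was 23.

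Rpl27, a large subunit protein, had 1509 and 1841 CPM in Hsd cells of NP and 803 and 701 CPM in PI, a log2 fold change of -1.23 (SE 0.20, edgeR adjusted p = 0.000584). Rpl6l, a retrogene of Rpl6, fell from 157 and 198 CPM to 77.1 and 69.6 CPM (-1.35), and Rps27rt from 22.5 and 36.3 CPM to 15.3 and 10.0 CPM (-1.39). Rps19, a small subunit protein whose human gene is mutated in Diamond-Blackfan anaemia, fell from 4335 and 5142 CPM to 2594 and 2788 CPM (-0.88). Rplp1 was an exception among the stalk proteins, with 5827 and 6180 CPM in NP, 6422 and 5391 CPM in PI and a log2 fold change of -0.09, while Rplp2 fell by 0.67.

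Hormone-sensing progenitors had 23 of 84 members lower and 0 higher, against 7.75% and 10.2% of the 10677 genes tested, with 42 members at an unadjusted p under 0.05 and 26 called by DESeq2, all lower. The median was -0.37 (all genes -0.02). Rpl15, a large subunit protein, fell from 1681 and 1758 CPM to 873 and 740 CPM (log2 fold change -1.11, SE 0.17, edgeR adjusted p = 0.000150). Rpl27 fell from 1350 and 1602 CPM to 747 and 636 CPM (-1.11), and the small subunit gene Rps28 from 1111 and 1774 CPM to 783 and 698 CPM (-0.98). The NP mice were further apart for Rps28 than for Rpl15. Milk protein genes were higher in 6 of 6 cases in these PI cells, from 197 and 336 CPM to 6822 and 7332 CPM in sum, and their part in the members' values was not tested. Without NP mouse 2 the count was 3, and without PI mouse 1 it was 12.

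Luminal progenitors had the fewest calls of the 3 PI comparisons. Of 84 members 14 were lower and 1 higher in PI, against 14.1% and 14.8% of the 10744 genes tested, and the median was -0.15 (all genes -0.01). The share called lower was thus close to the background and the share called higher below it. Rpl7a was the member called higher, with 1345 and 1351 CPM in NP and 1592 and 1891 CPM in PI (log2 fold change 0.46, SE 0.15, edgeR adjusted p = 0.0286). Rpl27 fell again, from 954 and 1136 CPM to 624 and 515 CPM (-0.79), Rps29 from 958 and 1568 CPM to 775 and 625 CPM (-0.77), and Rps27rt from 19.01 and 41.5 CPM to 13.9 and 10.7 CPM (-1.17). Without NP mouse 2 the count was 4, and without PI mouse 2 it was 7. Milk protein genes were higher in 6 of 7 cases in these PI cells, from 770 and 1445 CPM to 13656 and 14679 CPM in sum, and their part in the members' values was not tested.

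Of the ribosomal proteins named outside the symbol rule, Gnb2l1, which encodes the small subunit protein Rack1, had log2 fold changes from NP to PI of 0.20 in Lp, -0.11 in Hsp and -0.38 in Hsd cells, and Fau, which encodes eS30 fused to a ubiquitin-like protein, had -0.01, -0.23 and -0.47. Neither was called there.

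The balance between luminal progenitors and differentiated hormone-sensing cells turned between NP and PI. Differentiated cells exceeded progenitors by 0.63 and 2.29 points of share in the NP mice and lay below them by -3.59 and -3.89 points in the PI mice. In a fit of 16 sums with a term for the mouse, 3 of 84 members were higher and 24 lower in progenitors than in Hsd cells of NP, against 25.4% and 30.5% of the 11872 genes tested. In PI mice 41 were higher and 0 lower, against 31.4% and 33.1%. Over both stages 17 were higher and 13 lower, against 33.0% and 37.5%.

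The difference between the PI and the NP contrast was then fitted, as a comparison added after the data had been seen. It was higher for 25 members and lower for 0, against 9.75% and 6.24% of all genes, and the median was 0.50 (all genes 0.08). An unadjusted p under 0.05 was found for 60 members, and DESeq2 called 22, all higher. All 77 subunit genes had a positive difference. The largest was 0.99 for Rpl10a, a large subunit protein (SE 0.21, edgeR adjusted p = 0.000561), followed by 0.86 for Rpl32, 0.86 for Rps18 and 0.82 for Rpl12.

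Here too 1 library weighed heavily. The count was 1 without NP mouse 2, 10 without NP mouse 1, 5 without PI mouse 1 and 12 without PI mouse 2, in each case with 0 members lower, and with total UMIs it was 11.

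Rpl7l1, Rps19bp1 and Rps12 were the members highest in progenitors relative to Hsd cells over both stages, with log2 differences of 1.155, 0.87 and 0.72 (edgeR adjusted p = 4.68e-16, 5.36e-13 and 2.99e-08). Rpl27, Rpl41 and Rpl39 were the lowest, at -0.56, -0.53 and -0.39. Rps12 is a small subunit protein, and Rpl39 and Rpl41 encode some of the smallest proteins of the large subunit. Without NP mouse 1 the split was 7 higher and 8 lower, and without PI mouse 1 it was 8 and 11. Without NP mouse 2 it was 13 and 6, and without PI mouse 2 14 and 4.

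Alveolar progenitors and differentiated alveolar cells differed little in single members after TMM. Over G and L 6 members were higher and 4 lower in progenitors, against 8.52% and 7.77% of all genes. In G alone 1 was higher and 1 lower (9.20% and 9.59%), and in L alone 0 were higher and 3 lower (4.88% and 4.24%). Rps3a1, Rpl21 and Rpl3 were highest in progenitors, at 0.34, 0.32 and 0.32, and Rps27l, Rps28 and Rpl41 lowest, at -0.52, -0.38 and -0.32 (edgeR adjusted p from 0.000415 to 0.0260). With total UMIs, where the milk protein transcripts weigh on the differentiated cells and the all-gene median moves from 0.05 to 0.50, 77 members were higher and 0 lower in progenitors. Without G mouse 1 or G mouse 2 the count was 1, without L mouse 1 it was 5 (all lower), and without L mouse 2 it was 15.

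Members differed in how often they were called over the 8 stage comparisons. Rps19 was called lower in 6 and higher in 0, and the paralog Rpl22l1 was called lower in 6 and higher in 1. Rps25, Rpl5, Rpl18, Rpl24, Rpl37a and Rps27l were each called lower once and higher in 0. Rpl5 and Rpl11 form, with the 5S RNA, a complex that binds the p53 regulator Mdm2, yet their values parted: from NP progenitors to G progenitors Rpl11 went from 2838 and 2988 CPM to 4641 and 4824 CPM (log2 fold change 0.69), and Rpl5 from 1067 and 1104 CPM to 1048 and 1023 CPM (-0.08, not called). Rps6, the target of the S6 kinases, rose by 0.31 in that comparison and fell by 0.64 from G to L progenitors, by 0.63 in basal cells from G to L and by 0.72 in Hsd cells from NP to PI.

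Paralogs did not always follow their partners. Rpl22, which binds double-stranded RNA, and Rpl22l1 both rose from Lp of NP to Avp of G, by 0.49 and 0.49 on the log2 scale, and both fell from G to L in Avp cells, by 0.66 and 0.76. In PI, by contrast, Rpl22l1 fell in all 3 luminal cell types, by 0.40, 0.57 and 0.74, and Rpl22 had -0.08, -0.27 and -0.38 and was not called. Rpl36al rose from G to L in Avp cells while Rpl36a fell from 2596 and 2465 CPM to 1468 and 1353 CPM (-0.54). Rpl7 rose in basal cells of G by 0.41, and Rpl7l1 fell. A difference between 2 paralogs was described here from their separate values and not tested.

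Rpl39l, a testis paralog of Rpl39, had 143 UMIs over all 51 sums, Rpl3l, known from muscle, had 11, and Rpl10l, known from testis, had 5. Rpl39l was at its highest among C1 to C15 in the Procr+ cells of L, with 18.6 and 8.90 CPM in sums of 644131 and 224739 UMIs. The 143 UMIs of Rpl39l lay in 23 of the 51 sums, so the CPM values given here rest on few UMIs. Fibroblasts had 28.9 and 12.5 CPM in NP, 4.53 and 33.2 CPM in G, and 24.5 and 43.4 CPM in L. C15 also carried fibroblast markers at 1517 and 392 CPM, and the part of this in the Rpl39l level was not tested.

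Apart from Rpl3l and Rpl10l, which were near 0 everywhere, the members that varied least over the 35 sums of C1 to C15 were Rps25, Rpl37a and Rpl41, each with an SD of 0.36 on the log2 CPM scale. Rpl39l had the largest SD (0.99), but its median over these sums was 0 CPM, so that this spread rests on counts near 0. The next most variable were Rpl7l1 (0.76), Rps19bp1 (0.75), Rpl12 (0.72) and Rplp0 (0.70). The correlation of a member with the sum of all others over these 35 sums was 0.25 for Rps29 and 0.45 for Rpl41. It was -0.61 for Rpl39l, whose counts were near 0. These sums share mice, so the correlations are descriptions.

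Genes outside the set that followed its summed level most closely over the 35 sums were Eef1b2 (Pearson r = 0.952), Gnb2l1 (0.941), Fau (0.938), Cct4 (0.912), Eif3f (0.911), Trmt1 (0.900), Eif3h (0.899), Eif4e2 (0.882), Naca (0.882) and Rtcb (0.880). Gnb2l1 and Fau encode ribosomal proteins, Eef1b2 an elongation factor, Eif3f and Eif3h subunits of initiation factor 3, Cct4 a chaperonin subunit and Naca a nascent chain protein. Sums of 1 mouse and of 1 stage are not independent, and the values are given without a test.

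In the 8 stage comparisons the changes of single members were related to coding length. The 77 proteins of the ribosome were divided at their median coding length of 468 bases into 38 shorter and 39 longer genes. The length of a gene was that of its longest annotated coding sequence. From Lp of NP to Avp of G the median log2 fold change was 0.05 for shorter and 0.45 for longer genes, and in basal cells from NP to G it was -0.16 and 0.28. From G to L the order turned, with -0.42 and -0.74 in Avp, -0.29 and -0.68 in Avd and -0.57 and -0.89 in basal cells. The rank correlation of the fold change with coding length across the 77 genes was 0.64 and 0.66 in the rises to G and -0.61, -0.71 and -0.52 in the changes to L. From NP to PI it was 0.57 in Lp, 0.53 in Hsp and 0.46 in Hsd cells. It was 0.65 for progenitors against alveolar cells, but only 0.18 against hormone-sensing cells and -0.24 for basal cells against fibroblasts. With transcript length it was smaller in size in the 8 stage comparisons, from -0.47 in Avd of L to 0.41 in basal cells of G.

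The ratio of UMIs in shorter to longer genes followed the library. It was 0.699 to 0.880 in the sums of G, 0.876 to 1.07 in L, 0.831 to 1.06 in NP and 0.742 to 0.892 in PI. Within a stage, 1 mouse led in every shared cluster: NP mouse 2 in 5 of 5, G mouse 1 in 7 of 7, L mouse 2 in 7 of 7 and PI mouse 1 in 5 of 5, immune, fibroblast and endothelial clusters included. NP mouse 2 exceeded NP mouse 1 by 0.0764 to 0.101. The direction of the difference between the 2 mice of a stage was thus the same in their shared clusters, while its size varied, from 0.0114 to 0.0783 in L, and the part of this in the single-gene results above, in which Rpl27, Rps28, Rps29, Rpl39 and Rpl41 are short and Rps3, Rps4x and Rpl3 are long, was not tested.

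**Figure D4:**
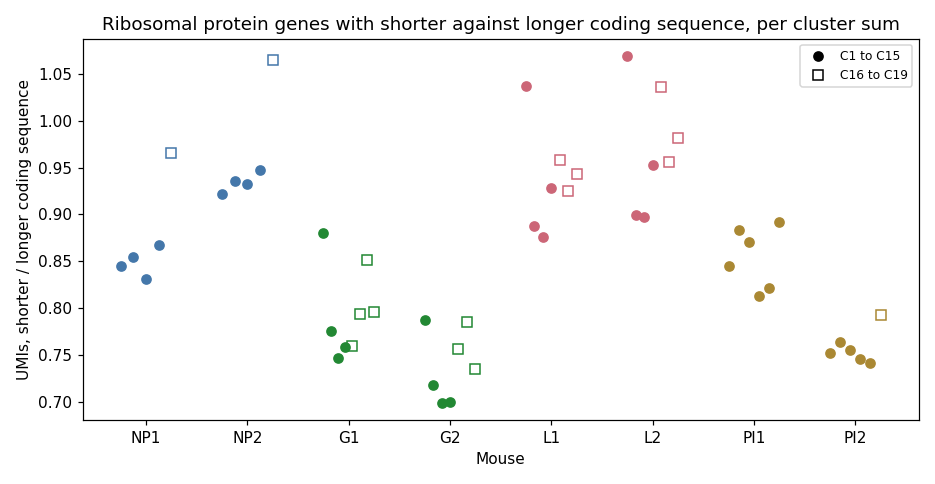
Ratio of the UMIs of the 38 shorter to those of the 39 longer ribosomal protein genes (y axis) for each cluster sum of each mouse (x axis), with filled circles for C1 to C15 and open squares for C16 to C19. The sums of G lie at 0.699 to 0.880 and those of L at 0.876 to 1.07, and the sums of 1 mouse move together.

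Other parts of the translation machinery were described by their counts in the same fits, to be read against the shares of all genes called. Ribosome biogenesis genes, which make and assemble the subunits in the nucleolus, were lower in 32 of 35 cases in basal cells from NP to G. They were higher in 0, with a median of -0.79, where the ribosomal protein genes themselves were divided. Of all genes 22.8% were called lower and 24.8% higher there. Nop56, a box C/D snoRNP protein, had -1.06 and fibrillarin (Fbl) -1.01 there (edgeR adjusted p = 5.25e-08 and 1.27e-07). From G to L in basal cells a further 26 of 35 were lower and 2 higher, against 24.5% of all genes each way. The median was -1.29, and Nop56 fell by 1.55 and nucleolin (Ncl) by 1.20. From Lp of NP to Avp of G 15 were lower and 5 higher (median -0.46), where the ribosomal protein genes rose. All genes were called lower in 23.6% and higher in 24.7% of cases there. In Hsd cells from NP to PI 5 were lower and 0 higher, against 7.79% of all genes called lower there. In Lp 8 of 35 were higher and 0 lower (median 0.17), against 14.8% and 14.1% of all genes. In Hsp 5 of 35 were higher and 0 lower (0.14), against 10.2% and 7.75% of all genes. The ribosomal protein genes had medians of -0.15 and -0.37 there. The distance of these counts from the background was not tested.

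Mitochondrial ribosomal protein genes, which belong to a separate ribosome, parted from the members in some comparisons. From Lp of NP to Avp of G they rose as the members did, with 31 of 76 higher and 4 lower (median 0.32). Of all genes 24.7% and 23.6% were called so there. In basal cells from NP to G 38 of 76 were lower and 2 higher (-0.51), against 22.8% and 24.8% of all genes. In basal cells from G to L 22 of 76 were higher and 8 lower (0.05), against 24.5% of all genes each way. In Hsd cells of PI 3 of 77 were higher and 6 lower, against 8.83% and 7.79% of all genes. Their median was 0.08, where the cytoplasmic members had -0.62. From G to L they were lower in 5 of 75 in Avp and in 10 of 76 in Avd cells, and higher in 3 and 4. All genes were called lower in 13.5% and 10.5% and higher in 16.6% and 9.55% of cases, so these counts were below or near the background.

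Elongation factors moved with the ribosomal proteins in most comparisons. Of 7 genes 4 were higher and 1 lower from Lp of NP to Avp of G (median 0.47), against 24.7% and 23.6% of all genes. In basal cells from G to L 6 were lower and 1 higher (-0.45), against 24.5% of all genes each way. Eef1b2, a nucleotide exchange factor, fell by 1.65 and Eef1g by 1.44 in those basal cells, while Eef2k, the kinase that inhibits elongation factor Eef2, rose by 0.90. In Hsd cells of PI 3 of 7 were lower and 0 higher (-0.59), against 7.79% and 8.83% of all genes. Initiation factors were lower in 23 of 29 and higher in 1 in basal cells from G to L (-0.65). From Lp of NP to Avp of G 10 were higher and 11 lower (-0.24). The shares of all genes called in these comparisons are those just given for the elongation factors.

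Of 10 other transcripts known to carry a TOP motif, 6 were higher and 0 lower from Lp of NP to Avp of G (median 0.61). Among the 6 were Npm1 at 1.51, Nap1l1 at 1.01 and Naca at 0.95. Of all genes 24.7% were called higher and 23.6% lower there. In basal cells from G to L 8 were lower and 2 higher (-0.54), against 24.5% of all genes each way. Npm1 fell there by 1.60 and Cct4 by 0.80, and the exceptions were Vim, an intermediate filament gene, and Ubb, a ubiquitin gene, at 2.27 and 1.57. In Hsd cells of PI 3 were lower and 0 higher (-0.34), against 7.79% and 8.83% of all genes.

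Genes of the mTOR pathway and TOP regulators did not move one way. In basal cells from G to L 7 of 19 were lower and 3 higher, where 24.5% of all genes were called in each direction. Larp1, which binds TOP transcripts, fell by 0.98, and Rps6kb1, an S6 kinase, fell by 0.98, while Deptor, an mTOR inhibitor, rose by 1.12 and Tsc2, a repressor of the pathway, by 3.13. Myc, which drives ribosome biogenesis, rose by 0.97 there. From Lp of NP to Avp of G 2 of 18 were higher and 5 lower, against 24.7% and 23.6% of all genes: Ddit4, an inhibitor of mTOR, rose by 1.91, Eif4ebp1, a repressor of initiation under mTOR control, fell by 2.12, and Myc fell by 0.86.

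**Figure D5:**
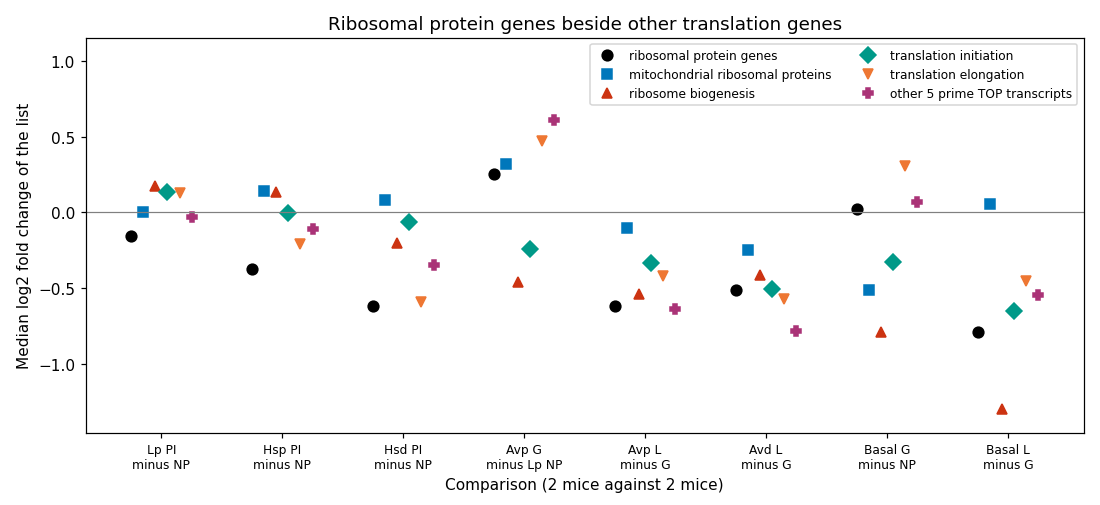
Median log2 fold change (y axis) of the ribosomal protein genes and of 5 other lists of translation genes in the 8 stage comparisons (x axis). In basal cells of G against NP the ribosomal protein genes lie at 0.02 and the ribosome biogenesis genes at -0.79, and in basal cells of L against G they lie at -0.79 and -1.29.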

How the data were processed

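The counts were made by the authors with Cell Ranger on mm10 and deposited as raw UMI counts per gene and barcode, with libraries aggregated without normalisation. Cluster numbers and quality flags are the authors' own labels. No combined matrix was used. A cluster made from the same counts can favour genes that separate it, and a share of UMIs moves with every other abundant transcript.

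UMIs of cells that passed the flags were summed per mouse and cluster (at least 20 cells; doublet cluster C20 left out). Sums of 2 mice against 2 were tested with edgeR 4.0.16 (limma 3.58.1, R 4.3.3): robust quasi-likelihood fit, TMM, filterByExpr with a minimum count of 10 and total of 15, and Benjamini-Hochberg over all genes at 0.05. Fits of progenitors against differentiated cells used 16 sums with the mouse as a term. Shares were compared within mice by a two-sided exact sign-flip permutation test in Python 3.11.15 with numpy 2.4.6, scipy 1.17.1 and pandas 2.3.3, and figures were drawn with matplotlib 3.10.9. The edgeR step was tested on simulated data with 200 changed genes. Mice are separate animals, and library totals and intervals are given with the results.

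The genes named are, per comparison, the called members without overlap between mice that moved furthest, 3 upward and 3 downward, with a preset list (stalk proteins, Rpsa, Rps6, Rps19, Rps3, Rpl3, Rpl4, Rpl5, Rpl11, Rpl10, Rpl13a, Rps27a and paralog pairs), the most and least variable members, and the 10 genes most like the summed level. Values for other members were chosen after they were seen. The members and lists were chosen with earlier results of these data known. The fits against C17, C18 and C19 and the PI minus NP difference were added after the data had been seen. Alternatives were DESeq2 1.42.0, total UMIs, TMM from non-members, no filter, the replicate number as a block, milk protein or mitochondrial genes left out, cells of 3000 to 10000 UMIs, shares averaged per cell, paralogs left out, and each mouse left out. Same-numbered mice of 2 stages are not related by the labels, and their deviations correlated at -0.06 to 0.06. Rps4l was not analysed here. Single values of some genes that the rule names are not reported here.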

Additional observations from a re-analysis of the deposited data

Results flagged for a closer look

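In 4 cases both mice of 1 stage moved one way and both mice of another stage the opposite way in the same within-mouse difference in share. Differentiated hormone-sensing cells minus luminal progenitors was 0.63 and 2.29 points in NP and -3.59 and -3.89 points in PI, so that PI minus NP was -5.20 points. The shares themselves were not tested. For single genes the contrast of progenitors minus Hsd cells was compared between PI and NP with edgeR. It was called higher in PI than in NP for 25 of 84 members and lower for 0, and this count depended heavily on NP mouse 2.

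Basal cells minus fibroblasts (C18) was 9.52 and 8.96 points in G and -5.19 and -3.79 points in L, a change of -13.7 points. Basal cells minus immune cells (C17) changed by -11.8 points and basal cells minus endothelial cells (C19) by -4.94 points, again positive in both G mice and negative in both L mice. The shares were not tested. In the fits of single genes edgeR called 75, 6 and 1 members lower against C18, C17 and C19.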

How the results depend on the processing

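Over the alternatives 200 results kept direction and side of the threshold or their value, 36 lost the threshold or fell by over 1.5 times in count, 9 passed it or rose so, 15 values without a test moved, and 15 turned in direction. With total UMIs in place of TMM the members' median was -0.24 in Lp, -0.92 in Avp L minus G, -1.40 in Avd L minus G, -0.065 in basal G minus NP, -0.90 in basal L minus G and 0.53 in progenitors against alveolar cells, where the all-gene medians were -0.10, -0.33, -1.06, -0.08, -0.07 and 0.50. Calls were then 80 in Avd, 43 in basal G minus NP, 77 in progenitors against alveolar cells, 2 against C17, 30 against C19 and 11 for PI minus NP. With DESeq2 calls were 38 against C18, 3 against C17 and 0 against C19, and the basal L minus G median was -0.81. Without a filter that median was -0.74, with 5 calls in progenitors against alveolar cells, mostly lower, 41 against C17 and 0 against C19. TMM from non-members gave 47 against C17. The cause was not tested.

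With the replicate number as a block, basal G minus NP had 36 calls (16 higher, 20 lower). The numbers do not pair the mice, and the other stage comparisons under the block had 15 calls in Lp, 27 in Hsp, 49 in Hsd, 50 in Avp G minus Lp NP, 53 in Avp L minus G, 41 in Avd and 68 in basal L minus G. Without the mouse term, that is with no pairing, progenitors against alveolar cells had 1 call, lower, and against hormone-sensing cells 21.

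Leaving out 1 mouse gave 4 to 13 calls in Lp (median -0.20 to -0.054), 3 to 21 in Hsp (-0.46 to -0.26), 5 to 32 in Hsd (-0.71 to -0.47), 28 to 50 in Avp G minus Lp NP (0.18 to 0.32), 31 to 60 in Avp L minus G (-0.68 to -0.49), 7 to 57 in Avd (-0.63 to -0.29), 23 to 39 in basal G minus NP (-0.10 to 0.11), 65 to 70 in basal L minus G (-0.80 to -0.76), 15 to 19 in progenitors against hormone-sensing cells (0.02 to 0.09), 1 to 15 against alveolar cells (-0.036 to 0.19), 60 to 79 against C18, 0 to 77 against C17, 0 to 4 against C19 and 1 to 12 for PI minus NP.

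Progenitors minus differentiated luminal cells in share was 1.898 points without milk protein genes, 3.72 in cells of 3000 to 10000 UMIs (exact permutation, adjusted p = 0.0820, no longer past the threshold) and 3.36 to 4.95 without 1 mouse. Differentiated luminal minus basal cells was 3.99 without milk protein genes and 0.925 to 2.09 without 1 mouse. Progenitors minus basal cells was 4.88 to 5.89 throughout.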
